A study of Bos taurus with 6 samples.

Results

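The centromere-proximal ends of the bovine autosomes were taken as the first 2 Mb of chromosomes 1 to 29, since these chromosomes carry their centromere at one end and are by convention numbered from it. The orientation of each assembled chromosome was not checked here, so that proximal means the start of the assembled sequence. The members were the 47140 CpGs at a position of at most 2000000 that were covered by 5 to 500 reads in all 6 libraries (CpGs 5-500), out of 1580644 CpGs 5-500 in the whole series, and they were compared with the 1494920 CpGs 5-500 of the rest of the same chromosomes. The libraries were made by reduced representation bisulfite sequencing (RRBS), in which MspI cuts DNA at CCGG sites and bisulfite converts unmethylated cytosines, so that CpG-rich fragments are read and the share of unconverted reads gives the methylation of each CpG. They comprised 2 libraries of bull sperm, 2 of CD14+ monocytes sorted from the blood of cows and 2 of fibroblasts cultured from ear skin of adult females (cows in the labels, heifers in the methods). All were Holstein cattle and each library came from a different animal. Sperm and somatic cells thus also differed in sex, only the fibroblasts were grown in culture, and the monocyte libraries alone had 12 PCR cycles instead of 14, so that none of these factors can be told apart from the cell type. The identity of the cells was not checked against marker genes, since the files, on the UMD3.1 build, were analysed without gene or repeat annotation, and for the same reason regions are given by position, without names.

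Cattle autosomes are acrocentric: the centromere sits at an extremity, next to long arrays of satellite DNA. Satellite arrays are nearly identical over many copies, so that a genome assembly holds only a fraction of them and begins in the sequence beside them. In most somatic tissues satellite DNA and other repeats carry dense CpG methylation, which is associated with compact chromatin, whereas the male germ line erases the inherited pattern and sets its own methylation as the germ cells develop. Mammalian CpG islands, the dense CpG clusters found at many promoters, are in contrast mostly unmethylated in both.

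The members were spread unevenly. Each chromosome held between 105 and 14529 of them, with a median of 835, and chromosome 25 alone held 30.8%, chromosome 14 12.4% and chromosome 24 8.73%. Averages over the members therefore lean on these chromosomes, and the averages of the cell types over all members are given below with and without chromosome 25. The median coverage of the members was 15 to 25 reads per library, as in the rest, which leaves the level of any 1 CpG imprecise, and the counts carry no molecular identifiers, so that their error covers counting only. The coverage of a whole library, summed over its CpGs, was between 45884839 and 78890776, in which a read counts once for every CpG it covers. Tests between libraries were exact and two-sided, and the smallest p they can reach is 0.333 for 2 libraries against 2, 0.0667 for sperm against all 4 somatic libraries and 0.0312 for a sign-flip test over all 6.

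In the proximal ends, sperm DNA was less methylated than monocyte DNA, and below fibroblast DNA by a margin that depended on chromosome 25. Averaged over the members, methylation reached 47.5% and 47.1% for the pair of sperm libraries, 58.8% and 58.3% for that of monocytes and 48.4% and 49.0% for that of fibroblasts. Both sperm libraries lay below all 4 somatic libraries, with differences of -11.2 points to monocytes and -1.38 points to fibroblasts, both larger than the spread between replicates. Sperm minus the 4 somatic libraries was -6.31 points (exact two-sided permutation test, p = 0.133). Without chromosome 25, sperm averaged 41.2%, monocytes 57.4% and fibroblasts 46.6%, which put sperm -16.2 points from monocytes, -5.31 points from fibroblasts and -10.8 points from the 4 somatic libraries (exact permutation test, p = 0.133). Over the rest of the same chromosomes sperm was at 49.4 ± 0.287% (SD, n = 2), monocytes were at 53.7 ± 0.19% and fibroblasts at 46.3 ± 0.326%, and the difference between sperm and somatic cells was -0.628 points (exact permutation test, p = 0.733). In the rest, sperm thus lay between both somatic cell types, whereas sperm was the lowest of the 3 when all members were averaged. With chromosome 25 included and every CpG counting equally, this order came from the first 500 kb, a limit chosen after the data had been examined. From 500 kb to 2 Mb, with 36158 members, sperm was at 49.9%, between monocytes at 56.3% and fibroblasts at 47.9%, as in the rest. These values include chromosome 25, and the interval was not averaged without it, so that the order may depend on this chromosome. With every chromosome counting equally, sperm was the lowest in each interval up to 2000 kb, as given below.

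The proximal ends departed from the rest in opposite directions in sperm and in somatic cells. Proximal minus rest was -2.02 points in each sperm library, 4.96 and 4.75 points for monocytes and 2.39 and 2.54 points for fibroblasts. Both sperm values were negative and all 4 somatic values positive, and the difference between them, -5.68 points, gave the smallest p that this design allows (exact two-sided permutation test, p = 0.0667). With directions that differ between cell types, the average over the 6 libraries did not pass the sign-flip test (exact, p = 0.188). The difference between sperm and somatic cells was wider without chromosome 25, at -10.0 points, and between -10.0 and -4.21 points when each chromosome was left out in turn. The direction within a cell type was less stable. In sperm, proximal minus rest was -7.76 points without chromosome 25 and -0.115 points without chromosome 14, and in fibroblasts 0.548 points without chromosome 25. The rest includes the other end of the chromosomes, and its last 2 Mb were methylated at 70.8% in sperm, 72.6% in monocytes and 63.4% in fibroblasts. Without these distal ends in the rest, proximal minus rest was positive in all 3 cell types, at 1.88 points for sperm, 8.29 for monocytes and 5.59 for fibroblasts. With every chromosome counting equally, it was negative in all 3, at -15.9 points for sperm, -0.505 for monocytes and -4.55 for fibroblasts. The position of sperm relative to somatic cells kept its sign under both settings, at -5.06 and -13.4 points. At the limit of 2 Mb itself, the CpGs from 1.9 to 2 Mb were at 35.3%, 46.8% and 39.9% in sperm, monocytes and fibroblasts, and those from 2 to 2.1 Mb at 52.6%, 58.0% and 49.1%.

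Over the pooled CpGs, the difference was concentrated next to the chromosome start. The intervals within the 2 Mb were chosen after the data had been examined. In the first 100 kb, which held 2786 CpGs on 27 chromosomes, the sperm libraries averaged 28.9% and 27.7%, the monocyte libraries 78.2% and 77.3% and the fibroblast libraries 54.3% and 55.3%. With every CpG counting equally, sperm was thus at its lowest and monocytes at their highest in the same interval, of the 11 examined up to 5 Mb. The difference between sperm and somatic cells was -38.0 points in this interval (exact permutation test, p = 0.0667), -22.6 points from 100 to 200 kb, -12.1 points from 200 to 300 kb, -8.3 points from 300 to 400 kb and -10.9 points from 400 to 500 kb. From 500 to 1000 kb it was -4.32 points, from 1000 to 1500 kb -0.501 and from 1500 to 2000 kb -2.2, and in the 3 intervals of 1 Mb that follow it ranged from -0.818 to 2.53 points. The departure from the rest was thus strongest in the first 500 kb, with 10982 CpGs, where sperm was at 38.8 ± 0.258% (SD, n = 2), monocytes were at 65.9 ± 0.479% and fibroblasts at 51.4 ± 0.353%. Against the following 1.5 Mb, this interval differed by -11.1 points in both sperm libraries, by 9.71 and 9.45 points in those of monocytes and by 3.55 and 3.42 points in those of fibroblasts (sperm minus somatic -17.6 points, exact permutation test, p = 0.0667). Chromosome 25 supplied 26.5% of these CpGs, and without it the first 500 kb were at 29.9% in sperm, 66.7% in monocytes and 48.7% in fibroblasts. With every chromosome counting equally, sperm, monocytes and fibroblasts were at 30.4%, 74.3% and 52.7% in the first 100 kb. They were at 37.2%, 53.5% and 42.2% from 500 to 1000 kb, and at 42.1%, 56.0% and 42.9% from 1500 to 2000 kb. On this scale sperm stayed below both somatic cell types up to 2000 kb. The concentration at the start did not hold on every chromosome. On chromosomes 21 and 3 the difference was wider over the 2 Mb (-39.2 and -20.9 points) than in the first 500 kb (-20.6 and -1.72 points). On chromosomes 13, 17, 23, 27 and 28 it was also more negative over the 2 Mb.

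**Figure D1:**
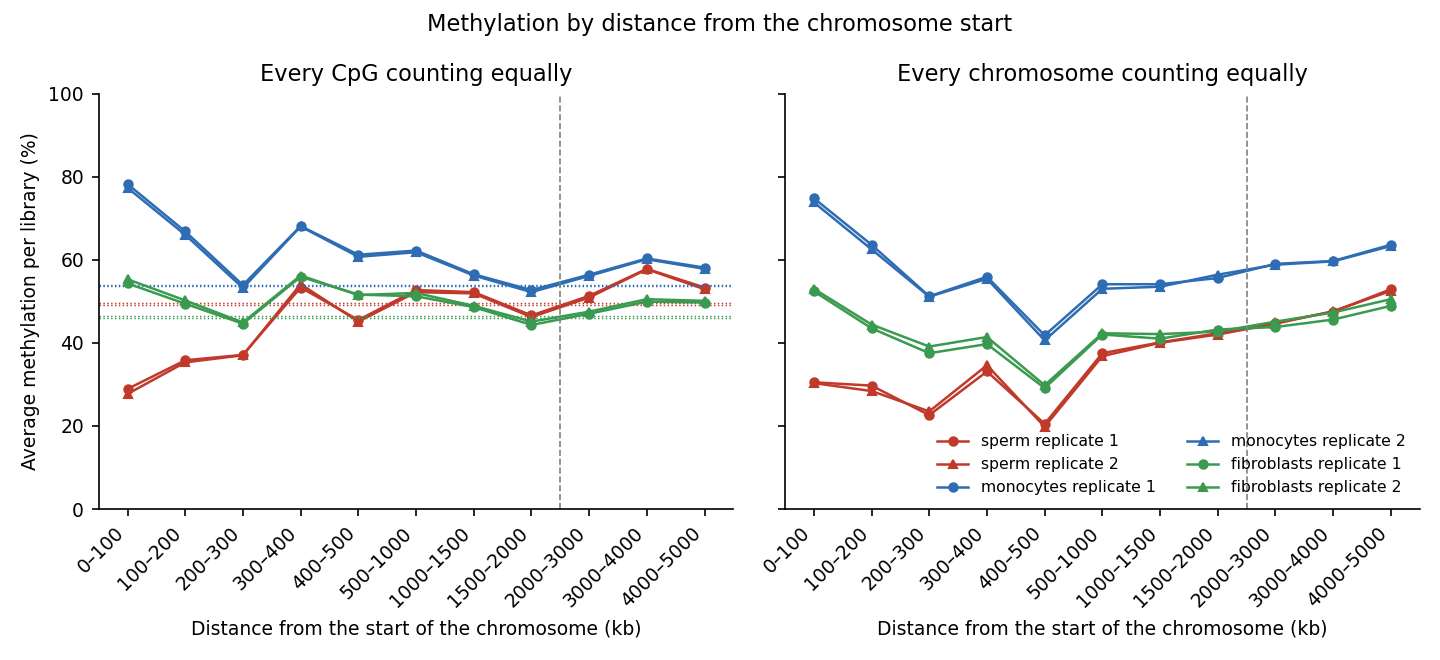
Average methylation (%) of each of the 6 libraries by distance from the start of the chromosome (kb), with every CpG counting equally on the left and every chromosome with at least 10 CpGs of the interval counting equally on the right. The dashed line marks 2 Mb and the dotted lines the rest of the autosomes, and the gap between cell types is widest in the first 100 kb, with the sperm libraries at 28.9% and 27.7% and the monocyte libraries at 78.2% and 77.3% on the left.

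The same order of cell types was found on most chromosomes. Of the 22 chromosomes with at least 10 CpGs in the first 100 kb, 19 had both sperm libraries below all 4 somatic libraries, and the difference between sperm and somatic cells ranged from -53.8 to 15.0 points with a median of -41.2. Averaged over the whole rest of the chromosome, 7 of 29 had such an order (24.1%). That average spans far more CpGs, and intervals of 100 kb elsewhere were not counted, so that both counts are not of like intervals. On chromosome 19, which supplied the largest share of these CpGs (12.3%), the first 100 kb of the sperm libraries were at 18.1% and 16.7%, with monocytes at 81.0% and 80.0% and fibroblasts at 61.2% and 62.3%. Chromosome 27 went the other way, with sperm at 68.0% and 68.7%, monocytes at 59.1% and 59.2% and fibroblasts at 47.9% and 47.3%. On chromosomes 11 and 28 sperm lay between both somatic cell types, with differences of 2.65 and 2.15 points over 14 and 19 CpGs. In the first 500 kb, both sperm libraries lay below all 4 somatic libraries on 21 of 29 chromosomes. The difference there ranged from -58.5 to 2.43 points with a median of -22.4, and like intervals elsewhere were not counted.

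Next to the chromosome start, many CpGs were partly methylated. CpGs were classed as hypomethylated below 20%, intermediate from 20 to 80% and hypermethylated above 80%. In the rest of the autosomes sperm had the fewest intermediate CpGs, 5.49% and 5.64%, while monocytes had 10.6% and 11.0% and fibroblasts 25.7% and 25.3%. In the first 100 kb the intermediate share of sperm was 33.9% and 33.0%, that of monocytes 29.0% and 33.7% and that of fibroblasts 60.0% and 59.7%. Hypermethylated CpGs, 47.3% and 46.8% of the CpGs of the rest in sperm, were 12.5% and 11.6% in the first 100 kb, whereas in monocytes they were 64.5% and 60.1% against 49.5% and 48.8% in the rest. Hypomethylated CpGs were scarce in the first 100 kb in monocytes, with 6.5% and 6.21% against 39.9% and 40.1% in the rest, but not in sperm, with 53.6% and 55.4% against 47.2% and 47.6%. Against the rest, sperm thus had fewer hypermethylated and more intermediate CpGs, and monocytes had fewer hypomethylated and more of both other classes.

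**Figure D2:**
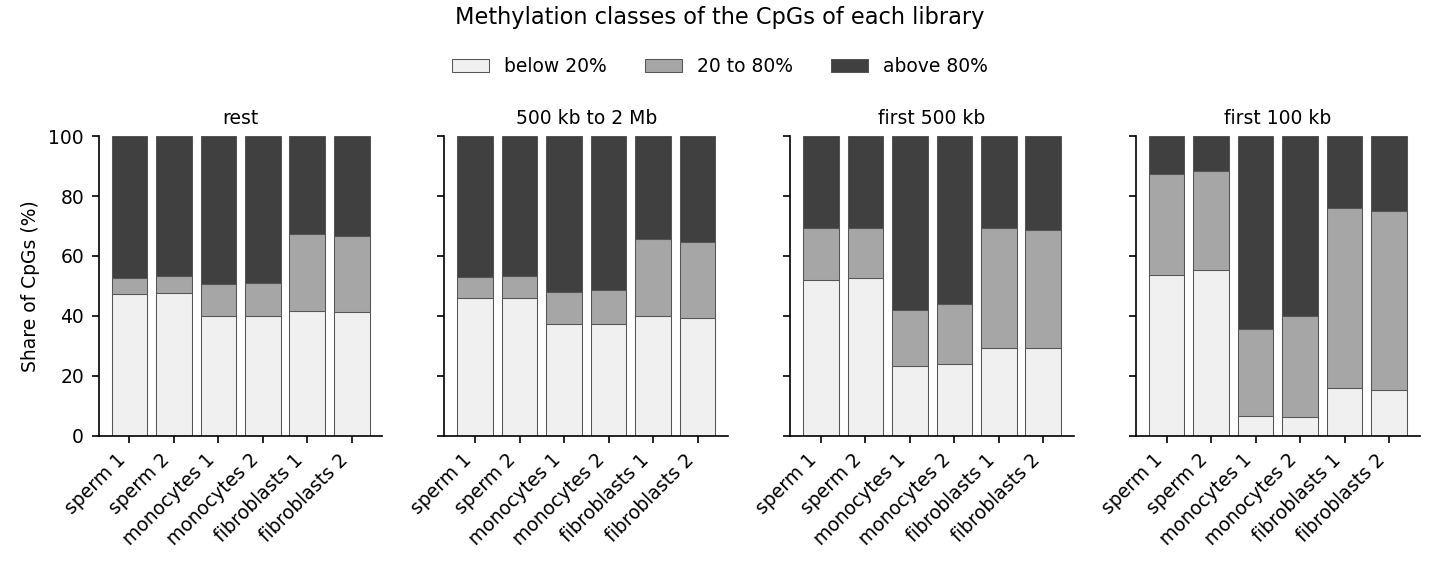
Share of CpGs (%) in 3 classes of methylation for each of the 6 libraries, in the rest of the autosomes, from 500 kb to 2 Mb, in the first 500 kb and in the first 100 kb. The intermediate class is 5.49% in the rest and 33.9% in the first 100 kb for sperm replicate 1, and 25.7% and 60.0% for fibroblast replicate 1.

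Classing each CpG by its average in the 3 cell types showed which combinations were frequent in the proximal ends. CpGs below 20% in all 3 cell types, as is usual of CpG islands, made up 31.1% of the members against 35.6% of the rest, and 21.7% of the first 500 kb. CpGs above 80% in all 3 made up 24.4% of both the members and the rest, but 17.8% of the first 500 kb. More frequent than in the rest were CpGs that were low in sperm, high in monocytes and intermediate in fibroblasts, which made up 4.77% of the members and 11.6% of the first 500 kb against 2.34% of the rest. CpGs intermediate in sperm and fibroblasts and high in monocytes made up 7.71% of the first 500 kb against 1.47% of the rest. CpGs low in sperm and intermediate in both somatic cell types made up 7.91% of the first 500 kb against 2.23%, and those low in sperm and fibroblasts and intermediate in monocytes 4.02% against 1.31%. CpGs low in sperm and high in both somatic cell types were also more frequent, at 5.45% of the first 500 kb against 3.63% of the rest, but by less. CpGs intermediate in sperm and high in both somatic cell types made up 5.44% against 2.31%. In these combinations sperm was in a lower class than monocytes, while fibroblasts shared the class of sperm, shared that of monocytes or lay between. Other combinations were also more frequent in the first 500 kb without such an order. CpGs intermediate in all 3 made up 1.96% against 0.646%, and those intermediate in sperm and monocytes and low in fibroblasts 1.07% against 0.228%.

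Differentially methylated CpGs (DMCs) were called by a logistic regression on the summed reads of each cell type, with p-values adjusted after Benjamini-Hochberg over all CpGs (below 0.01) and a minimum difference of 25 points. Between monocytes and sperm, 11530 members were DMCs, or 24.5%, against 18.8% of all CpGs tested and 18.0% of the rest, and 9657 of them (83.8%) were more methylated in monocytes, against 69.1% of such DMCs in the rest. Between fibroblasts and sperm, 13968 members were DMCs, or 29.6%, close to the 28.3% of all CpGs tested, but their direction differed: 54.3% were more methylated in fibroblasts, against 41.3% of the DMCs of the rest. Between monocytes and fibroblasts, 8423 members were DMCs, or 17.9% against 17.0% of all CpGs tested, and 88.5% of them were more methylated in monocytes, against 79.9% in the rest. With limma, which takes the variance between animals into account, fewer CpGs were called, and the share between monocytes and fibroblasts was then lower among the members (1.85%) than in the rest (2.1%). Its share between monocytes and sperm was 6.57% of the members against 5.53% of all CpGs tested. Between fibroblasts and sperm it was about the same in both, at 7.4% and 7.37%. Within a cell type, the logistic regression called 88 members between the sperm libraries (0.187%, against 0.309% of all CpGs tested), 76 between the monocyte libraries (0.161%, against 0.173%) and 310 between the fibroblast libraries (0.658%, against 0.693%). The calls between replicates were thus no more frequent among the members as a whole than elsewhere. In the first 100 kb they were 0.0718% for sperm, 0.323% for monocytes and 0.933% for fibroblasts, above all CpGs tested in both somatic cell types. The mean absolute difference between replicates was larger among the members than in the rest. It was 4.35 against 3.7 points for sperm, 5.85 against 5.39 for monocytes and 9.16 against 8.78 for fibroblasts.

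Sperm-specific DMCs, called in both comparisons with sperm but not between monocytes and fibroblasts, were mostly hypomethylated in sperm. Hypo-DMCs numbered 5896, or 12.5% of the members against 8.98% of all CpGs tested and 8.44% of the rest, and hyper-DMCs 831, or 1.76% against 2.43% and 2.46%. Hypo-DMCs thus made up 87.6% of the sperm-specific DMCs of the proximal ends and 77.4% of those of the rest. The hypo share exceeded that of the rest of the same chromosome on 18 of the 29 chromosomes, and the hyper share on 6. Chromosome 14 alone held 1213 of the hypo-DMCs, and on chromosome 25 their share was 5.13% against 7.74% in its rest. At the hypo-DMCs of the proximal ends, the median level of sperm was 7.78%, that of monocytes 91.7% and that of fibroblasts 82.5%, and at the hyper-DMCs these medians were 97.2%, 16.7% and 17.6%. Hypo-DMCs were 38.6% of the CpGs of the first 100 kb, 22.9% from 100 to 200 kb and 13.4 to 15.5% in the next 3 intervals, and from 1000 to 5000 kb their share was between 6.86% and 9.04%, near that of the rest. Hyper-DMCs were scarce over the first 500 kb, with 82 CpGs or 0.747%. The first 500 kb, with 0.712% of the autosomal CpGs tested, held 1.85% of the autosomal hypo-DMCs and 0.218% of the hyper-DMCs. With limma the hypo-DMCs were 1745 members, or 3.7% against 2.59% of the rest and 6.79% of the first 500 kb. Leaving the threshold on reads aside, both sperm libraries lay below all 4 somatic libraries at 9326 members (19.8%, against 14.5% of all CpGs) and above them at 4665 members (9.9%, against 12.3%), and the shares in the first 100 kb were 67.6% and 3.23%.

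**Figure D3:**
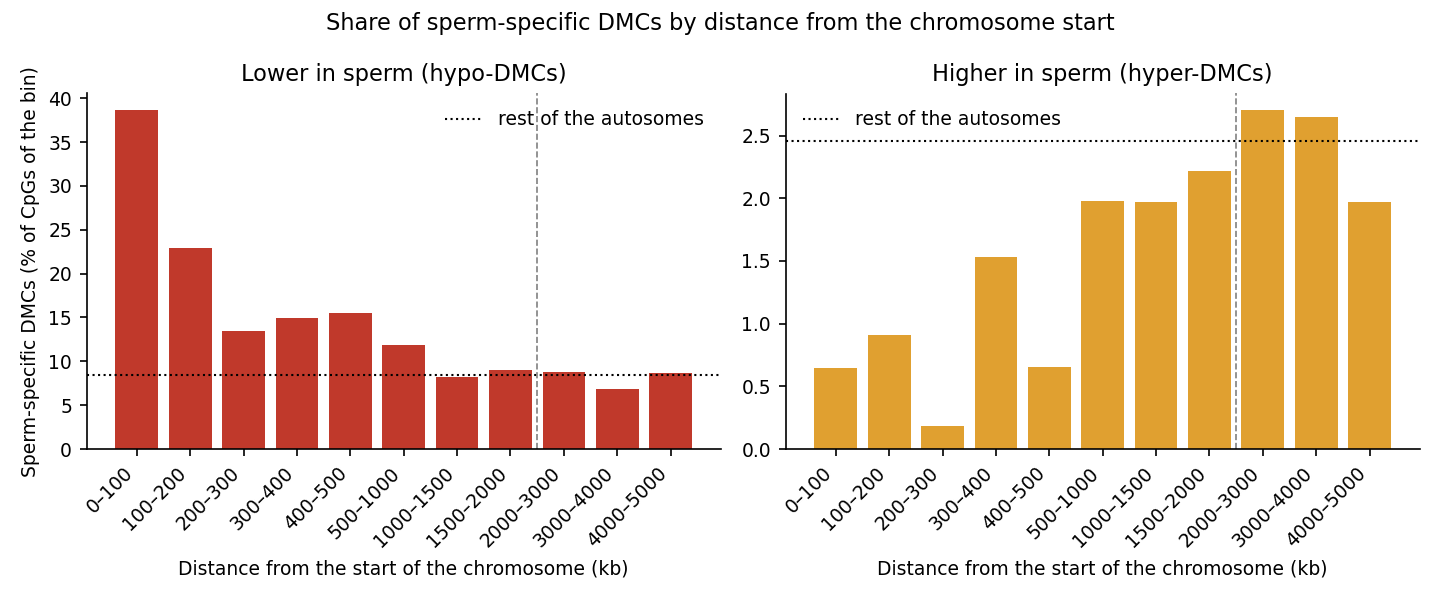
Sperm-specific hypo-DMCs (left) and hyper-DMCs (right) as a share (%) of the CpGs of each interval of distance from the start of the chromosome (kb). The dashed line marks 2 Mb and the dotted line the share in the rest of the autosomes (8.44% and 2.46%), and the hypo-DMCs are most frequent in the first 100 kb, at 38.6%, while the hyper-DMCs stay between 0.183% and 1.53% in the 5 intervals of the first 500 kb.

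Chromosome by chromosome, both sperm libraries lay below all 4 somatic libraries in the proximal end of 20 of the 29 autosomes, against 7 (24.1%) over the rest of the chromosome, a much longer stretch. The difference between sperm and somatic cells was more negative in the proximal end than in the rest on 23 chromosomes, and its median over chromosomes was -12.2 points in the proximal ends and -0.617 in the rest. Sperm itself was less methylated in the proximal end than in the rest on 23 chromosomes, monocytes on 13 and fibroblasts on 15. When the chromosomes were cut into windows of 2 Mb, the proximal window had the most negative difference of its whole chromosome on 5 chromosomes, and was among the 3 most negative on 11, out of 22 to 77 windows with at least 50 CpGs per chromosome. Windows elsewhere thus exceeded the first on most chromosomes.

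The gap between proximal end and rest was widest on chromosomes 19, 21, 4 and 9. On chromosome 19, the 512 members were at 18.6% and 18.2% in sperm, with monocytes at 69.5% and 68.7% and fibroblasts at 50.7% and 51.5%, whereas the rest of the chromosome was at 47.4%, 49.9% and 43.2%. The difference between sperm and somatic cells was therefore -41.7 points in the proximal end and 0.822 in the rest. On chromosome 21, sperm was at 23.2% and 21.3% in the proximal end, monocytes were at 75.3% and 72.7% and fibroblasts at 48.3% and 49.5%. Chromosomes 4 and 9 were at similar levels, with means of 23.1% and 21.1% in sperm, against 76.4% and 69.3% for monocytes and 52.7% and 49.3% for fibroblasts. On these 4 chromosomes, 39.0 to 44.7% of the members were hypo-DMCs and none was a hyper-DMC, against 6.37 to 11.8% of hypo-DMCs in the rest of the same chromosomes.

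At the opposite end of the ranking were chromosomes 27, 1, 24 and 8, where sperm lay higher relative to somatic cells in the proximal end than in the rest. Chromosome 27 had the most negative difference of all in the rest, -13.2 points, and -4.53 points in its proximal end, where sperm was at 61.3% and 61.8%, monocytes were at 74.1% and 73.4% and fibroblasts at 58.1% and 58.8%. On chromosome 1 the members were sparsely methylated in all libraries, with sperm at 31.3% and 29.9%, monocytes at 31.3% and 30.4% and fibroblasts at 25.0% and 25.8%. The proximal ends of chromosomes 24 and 8 were methylated at 67.8% and 56.8% in sperm, against 46.4% and 37.4% in the rest, so that here sperm was higher in the proximal end, and monocytes were too, at 72.6% and 63.7% against 54.8% and 48.5%. Chromosome 25, with the most members, showed no lower methylation in sperm either, since sperm was at 61.2% and 60.9%, monocytes were at 61.2% and 61.0% and fibroblasts at 53.3% and 54.0%, although its first 100 kb were at 48.5% and 46.9% in sperm and 85.3% and 86.6% in monocytes. Chromosome 17, singled out after its values were seen, was nearly unmethylated over its 235 members in every library, between 7.23% and 12.6%, against 53.0 to 59.7% in the rest of this chromosome. The proximal ends thus did not share one level of methylation, and the low level of sperm relative to somatic cells was common but not general.

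**Figure D4:**
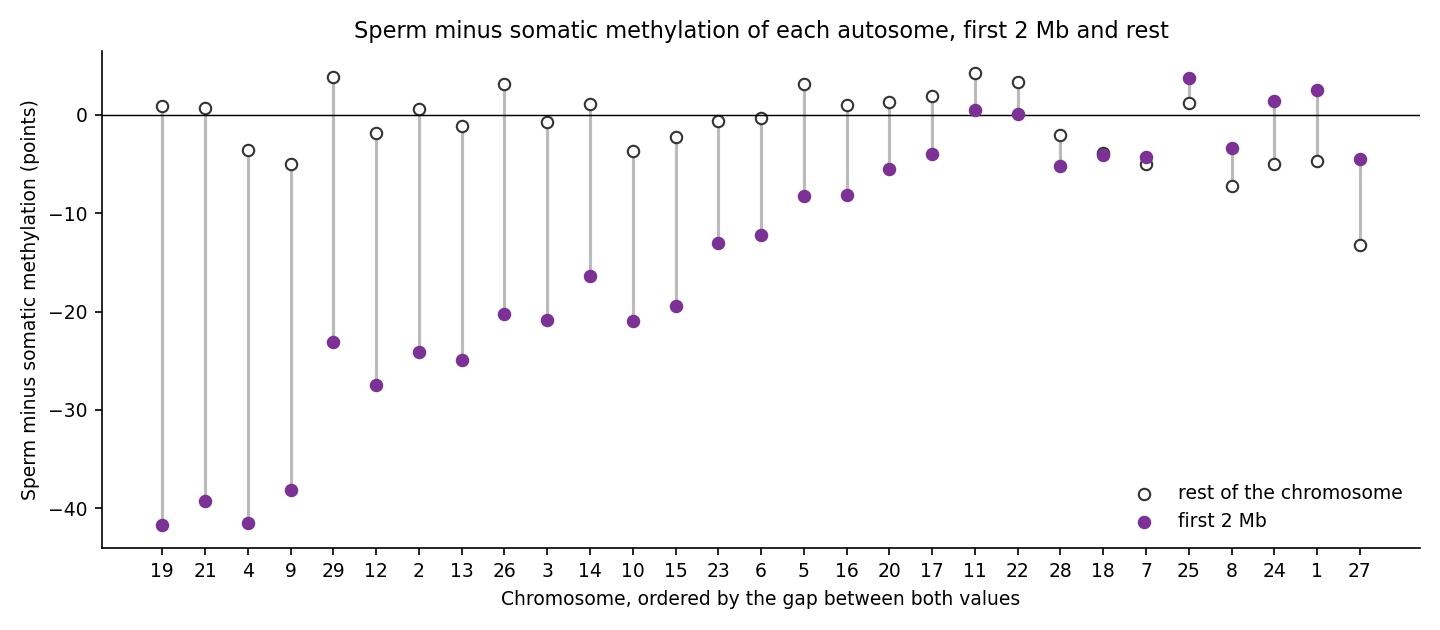
Difference in average methylation between sperm and the 4 somatic libraries (points) for each of the 29 autosomes, in its first 2 Mb (filled) and in the rest of the chromosome (open), ordered by the gap between both. The first 2 Mb range from -41.7 points on chromosome 19 to 3.69 on chromosome 25, while the rest stays between -13.2 and 4.18 points.

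Hypo-DMCs came in runs. When DMCs of the same direction at most 1000 bp apart were joined, the 5896 hypo-DMCs formed 810 runs, of which 359 on 27 chromosomes had at least 5 DMCs and together held 4977 of them. Of these 359 runs, 169 started in the first 500 kb, where 2447 of the 5896 hypo-DMCs lay. No runs of the rest of the autosomes are given here, so that runs cannot be called particular to the proximal ends. The 831 hyper-DMCs formed 287 runs, only 39 of which had 5 DMCs or more, on 8 chromosomes, with 3 starting in the first 500 kb. The runs described next are those with the most DMCs, so that their differences follow from the choice and are given without a test.

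The run with the most hypo-DMCs lay at chr25:1716507-1718333 and held 90 DMCs among 101 members. The sperm libraries averaged 5.53% and 1.73% there, the monocyte libraries 90.9% and 90.3% and the fibroblast libraries 81.2% and 84.9%, and the groups were far apart. It bordered a stretch that was unmethylated in every cell type: the 82 CpGs up to 3.09 kb before its centre averaged 1.0% and 0.401% in sperm replicates 1 and 2, and 3.86 to 4.86% in the somatic libraries. On the other side, the 23 CpGs up to 3.89 kb after its centre averaged 98.4% and 97.9% in the sperm libraries, and monocytes (94.6% and 95.2%) and fibroblasts (77.4% and 79.5%) were methylated there too. The run thus extended an unmethylated stretch in sperm alone, up to DNA that was methylated in all 6 libraries.

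**Figure D5:**
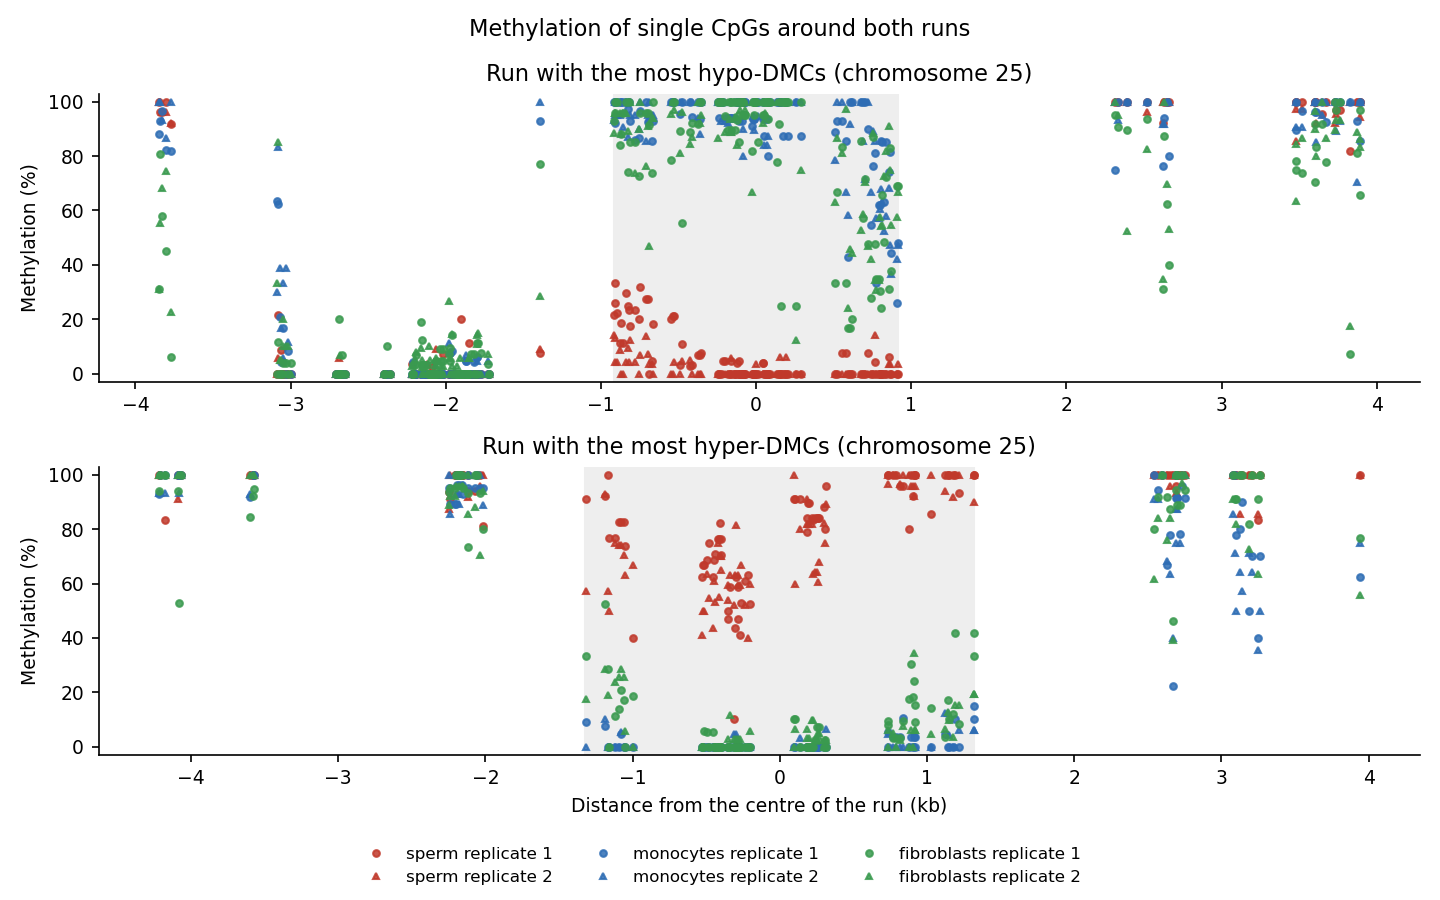
Methylation (%) of single CpGs in the 6 libraries against the distance from the centre of the run (kb), for the run with the most hypo-DMCs (top) and that with the most hyper-DMCs (bottom), both on chromosome 25 and shaded. In the top run the sperm libraries average 5.53% and 1.73% and the monocyte libraries 90.9% and 90.3%, and in the bottom run the sperm libraries average 79.4% and 75.1% and the monocyte libraries 1.35% and 1.2%.

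The other large hypo runs fell into several profiles. At chr18:1544559-1546516, 74 of 77 members were hypo-DMCs, with 11.3% and 13.4% in sperm against 92.6 to 96.2% in the somatic libraries. At chr27:290205-291148, sperm was at 0.403% and 0.0498% over 67 members, the lowest of the 8 runs, and both somatic cell types were at about the same level, 86.2% and 86.4%. At chr24:1045892-1047251, the difference between sperm and somatic cells was -91.0 points, the widest of the 8, with 3.5% and 4.32% in sperm. These 3 runs were thus close to fully unmethylated in sperm and close to fully methylated in both somatic cell types. The runs at chr14:1918794-1920248 and chr14:320889-321967 kept more methylation in sperm, at 22.7% and 24.8% and at 19.5% and 28.4%. At chr25:981406-983312, fibroblasts, with 83.1% and 84.4%, were above monocytes, with 73.7% and 74.9%, while sperm was at 10.1% and 12.3%. The longest run, chr3:1028021-1034935 over 6915 bp, stood apart: its median coverage was 110 reads, against 15 to 25 in the other 7, and 50 further CpGs within it exceeded 500 reads in at least 1 library. There, sperm was at 22.5% and 18.9%, monocytes were at 77.3% and 74.1% and fibroblasts at 59.3% and 55.2%, a graded order like that of the first 100 kb.

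Of the 6 large hyper runs, 4 were nearly unmethylated in somatic cells. The run with the most hyper-DMCs, chr25:1193917-1196560, held 71 DMCs among 73 members with sperm at 79.4% and 75.1%, monocytes at 1.35% and 1.2% and fibroblasts at 8.05% and 6.13%. It was an unmethylated island within methylated DNA in somatic cells, since the 24 CpGs before it and the 23 CpGs after it averaged between 74.1% and 99.1% in each library. At chr25:1699208-1699966 sperm was at 96.7% and 97.4%, monocytes were at 6.85% and 3.49% and fibroblasts at 0.486% and 0.37%, and chr1:1735743-1736059 was alike, with 98.8% and 95.3% in sperm and 1.0 to 11.2% in the somatic libraries. The runs at chr25:1993912-1994997 and chr14:1835712-1836352 kept 14.9 to 31.6% in the somatic libraries. At chr25:678081-678260, both sperm libraries differed widely from each other, at 81.6% and 54.1%, but each was far above the 1.82 to 4.1% of the somatic libraries. Chromosome 25 held 4 of the 6.

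The somatic cell types also differed from each other. Runs were formed from the DMCs between monocytes and fibroblasts that were not DMCs of both sperm comparisons, so that by construction they share no DMC with the sperm-specific runs, and there were 341 runs of at least 5 DMCs with the higher level in monocytes and 48 with the higher level in fibroblasts. At chr25:792534-793472, monocytes were at 94.7% and 95.2% and fibroblasts at 15.3% and 17.7%, with sperm at 97.7% and 97.1%. The runs at chr25:1657872-1659539 and chr25:823979-825353 were also methylated in sperm and monocytes, and at 7.19% and 20.1% and at 21.1% and 36.7% in fibroblasts. The runs with the higher level in fibroblasts were methylated less fully. Fibroblasts were at 61.5% and 66.4% at chr24:1095540-1096333, at 30.6% and 41.2% at chr25:1065791-1066909 and at 67.8% and 62.4% at chr16:1807137-1807447, where monocytes were between 1.93% and 11.6%. At the last of these, the sperm libraries were apart, at 19.0% and 44.0%.

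The chromosome start also differed from the rest in coverage. In the proximal ends as a whole the mean coverage per library was 18.4 to 30.2 reads, with the same medians as in the rest. The mean coverage per library was 28.9 to 45.2 reads in the first 100 kb against 16.4 to 28.0 in the rest, with medians of 16 to 28 and 15 to 25, and CpGs with a mean of at least 100 reads per library made up 4.02% of the first 500 kb against 0.708% of the rest. At these deeply covered CpGs sperm was at 18.2%, monocytes were at 84.1% and fibroblasts at 66.9% in the first 500 kb, and at 22.1%, 80.5% and 64.1% in the rest, so that their profile was alike wherever they lay. At CpGs with a mean of 10 to 20 reads, sperm was at 42.4% in the first 500 kb and 53.5% in the rest, monocytes were at 65.0% and 57.0%, and fibroblasts at 50.5% and 48.8%. The difference between sperm and somatic cells in this class was -15.4 points in the first 500 kb and 0.631 in the rest, so that it was also present at ordinary coverage. With a maximum of 100 reads in all libraries, the proximal minus rest difference between sperm and somatic cells was -4.89 points (exact permutation test, p = 0.0667).

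In the first 500 kb, the difference was present at every density of CpGs examined, but not over the whole 2 Mb. CpGs were grouped by the number of other CpGs 5-500 within 200 bp. Among CpGs with at most 4 such neighbours, sperm was at 52.4% in the first 500 kb and 82.7% in the rest, whereas monocytes were at 82.7% and 80.2%, and fibroblasts at 56.6% and 64.8%. Among CpGs with 10 to 19 neighbours, sperm was at 38.1% and 40.2%, monocytes were at 66.2% and 47.6% and fibroblasts at 55.5% and 42.7%. In sparse DNA it was thus mainly sperm that was lower in the first 500 kb, and in denser DNA it was the somatic cells that were higher. The difference between sperm and somatic cells was more negative in the first 500 kb in both classes, at -17.2 against 10.1 points and at -22.7 against -4.93 points, and also in the 3 other classes. In the proximal ends as a whole this depended on the class. With at most 4 neighbours the difference was 0.77 points against 10.1 in the rest, with 5 to 9 neighbours -5.48 against 2.48 and with 10 to 19 neighbours -10.0 against -4.93. With 20 to 29 neighbours it was about the same, -8.54 against -8.32, and in the densest class, with 30 to 62 neighbours and 6.14% of the members, it was less negative than in the rest, at -4.48 against -7.3 points. Within density classes weighted as in the proximal ends, the proximal minus rest difference was -5.31 points (exact permutation test, p = 0.0667).

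As no genome sequence of the build was used, recurrence of DNA was examined through the spacing of CpGs. A CpG was counted as recurring when it belonged to 9 successive CpGs within 300 bp whose 8 distances were found in the same order, or reversed, on another chromosome. Recurring CpGs made up 1.65% of the members (777 CpGs on 17 chromosomes), 2.9% of the first 500 kb and 1.35% of the rest. Sperm was at 14.7% and 13.0% over the recurring members, monocytes were at 71.7% and 72.0% and fibroblasts at 57.6% and 57.3%, and 61.1% of them were hypo-DMCs. Recurring CpGs of the rest had nearly the same profile, at 18.9%, 71.2% and 56.1%, and 56.3% of them were hypo-DMCs. In the first 500 kb, sperm was at 12.0% over such CpGs, monocytes were at 79.4% and fibroblasts at 63.9%. The other CpGs in such runs, which made up 63.6% of the first 500 kb, were at 33.9%, 56.9% and 47.2%, and 21.2% of them were hypo-DMCs against 8.77% of their counterparts in the rest. Recurring CpGs were thus farther from somatic cells in sperm, at -59.7 points in the first 500 kb and -44.7 in the rest. Among the other CpGs in such runs the difference was -18.1 points against -4.24 in the rest. CpGs outside any run of 9 within 300 bp could not be examined. They made up 33.5% of the first 500 kb, with a difference of -19.6 points against 8.58 in the rest. A copy with any CpG missing or shifted would not count as recurring, so whether the difference comes from repeated DNA was not tested.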

How the data were processed

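Groups were taken from the labels. Per the submitters' processing notes and the study's methods, reads of 75 bp from MspI fragments of 40 to 290 bp were trimmed (Trim Galore 0.3.7) and mapped on UMD3.1 with Bismark 0.14.3, and the authors deposited for each CpG and library the counts of uniquely mapped reads (coverage) and the percent methylated, to 1 decimal, unfiltered. Unique mapping discards reads of exact repeats and piles reads of collapsed repeats on few positions. Here, methylated reads were recovered as the nearest whole number. The members, intervals and region lists were chosen with earlier results of these data known.

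Averages gave every CpG equal weight. Libraries were compared by exact permutation tests, and DMCs were called with a logistic regression on summed reads (likelihood-ratio test, all 1580644 CpGs), which ignores the variance between animals. The code was tested on simulated data. Regions named are the 8 hypo and 6 hyper runs with the most DMCs and 3 runs in each direction between somatic cells; chromosomes named are the 4 at each end of the ranking by proximal minus rest, among those with at least 100 members. Alternatives were Fisher's exact test, limma 3.58.1, a replicate block, other thresholds, coverage limits, weights and interval lengths, and leaving out libraries or chromosomes. Replicates of the same number came from different animals, and their deviations did not correlate between cell types (r from -0.00325 to 0.00421), so that numbers pair nothing. Analyses ran in Python 3.11.15 and R 4.3.3. Genes, repeats and sequences of the regions were not analysed here.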

Additional observations from a re-analysis of the deposited data

Results flagged for a closer look

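Proximal minus rest methylation had opposite signs in the cell types, with a mean of -2.02 points in the sperm libraries and 3.66 points in the 4 somatic libraries (exact two-sided permutation test of the difference, p = 0.0667, the smallest the design allows). The same held for the first 500 kb against the following 1.5 Mb, at -11.1 points in sperm and 6.53 in somatic cells (exact permutation test, p = 0.0667), an interval chosen after the data had been examined.

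CpGs above 500 reads were outside all comparisons. In the proximal ends, 246 CpGs on 7 chromosomes exceeded 500 reads in all 6 libraries, with up to 32417 reads in a library. They were at 17.2 ± 1.9% in sperm (SD, n = 2), 82.9 ± 1.28% in monocytes and 70.1 ± 0.481% in fibroblasts, and sperm minus somatic was -59.3 points (exact permutation test, p = 0.0667). The 4237 such CpGs of the rest were at 23.3%, 82.5% and 68.2%. Of the 764 CpGs of the proximal ends above 500 reads in at least 1 library, 328 lay on chromosome 14, between positions 57454 and 1344517, and 252 on chromosome 3, between 693093 and 1047129.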

How the results depend on the processing

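Sperm minus somatic methylation in the proximal ends stayed negative under its 17 alternatives, from -19.8 to -2.63 points, and its proximal minus rest difference under its 19, from -19.2 to -1.96 points. The design allows neither to pass 0.05. Both were weakest with a proximal end of 5 Mb, at -2.63 points (exact permutation test, p = 0.667) and -1.96 points (exact permutation test, p = 0.133). These p-values lie above 0.0667, the smallest the design can reach. Within a cell type, proximal minus rest depended on the settings. With every chromosome counting equally it was -15.9 points in sperm, -0.505 in monocytes and -4.55 in fibroblasts; with a proximal end of 5 Mb it was 1.7, 4.67 and 2.66 points; without the last 2 Mb in the rest it was 1.88, 8.29 and 5.59 points. In each of these 3 settings all 6 libraries together passed the sign-flip test (exact permutation, p = 0.0312), with the same sign in every cell type, and the cause was not tested.

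The counts of DMCs, given here for monocytes against sperm, fibroblasts against sperm, monocytes against fibroblasts, sperm-specific hypo and sperm-specific hyper in this order, changed with the length taken as proximal: 6944, 7163, 4285, 3607 and 275 for a proximal end of 1 Mb, 21966, 31300, 19034, 10827 and 2322 for 5 Mb, and 4806, 4229, 2658, 2447 and 82 for 500 kb, an interval chosen after seeing the data. For 500 kb they were 43.8%, 38.5%, 24.2%, 22.3% and 0.747% of the CpGs of the interval. The shares of all CpGs tested were 18.8%, 28.3%, 17.0%, 8.98% and 2.43%. Counts at other lengths, coverage limits and sets of chromosomes also follow the number of CpGs tested, and are not frequencies. Apart from 500 kb, no shares are given for these counts, nor for a difference of 50 points or a library left out. They therefore do not say whether members were called more often than other CpGs. Without chromosomes 14 and 25, also chosen after seeing the data, the first 3 counts were 7639, 8568 and 5419 and the hyper-DMCs 337. With limma the 5 counts were 3097, 3487, 873, 1745 and 218, or 6.57%, 7.4%, 1.85%, 3.7% and 0.462% of the members. The shares of all CpGs tested were then 5.53%, 7.37%, 2.08%, 2.78% and 0.656%. Between monocytes and fibroblasts the share was thus lower among the members (1.85%) than in the rest (2.1%). A minimum coverage of 10 gave 9031 and 5509 for the comparisons with fibroblasts, 3930 hypo- and 533 hyper-DMCs, and a difference of 50 points gave 8026 and 3666 for the comparisons with fibroblasts. Leaving out each library gave 5319 to 7306 DMCs between monocytes and fibroblasts, the lowest without monocyte replicate 1, and changed no other count by more than 1.5 times. With the replicate block the 5 counts were 11080, 13229, 7589, 5872 and 773, or 23.5%, 28.1%, 16.1%, 12.5% and 1.64% of the members. The shares of all CpGs tested were 17.9%, 26.4%, 15.3%, 8.82% and 2.28%. The numbers name different animals, so the block pairs nothing.

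The percentage of a single CpG is limited by its depth, and the comparisons between cell types by 2 animals each.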
